A study of Mus musculus with 6 samples.

Results

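The genes described here are 10 surface and membrane genes that blood stem cells share with endothelium, the inner lining of blood vessels: Procr, Emcn, Trpc6, Myct1, Pdzk1ip1, Ly6a, Esam, Tek, Tie1 and Robo4. They were taken by name, with earlier results of these data known. A gene counted as measured where a row of the array named that gene alone. That held for 9 of the 10, out of 19938 genes measured in this way, and each of the 9 had 1 such row. Ly6a was not analysed here.

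RNA came from mouse bone marrow cells sorted as LSK CD150-, that is, cells without markers of mature blood lineages that carry Sca-1 and Kit and lack CD150, a protein of long-term stem cells. All 6 mice were homozygous for a Cebpa allele flanked by loxP sites, all received pIpC, a double-stranded RNA that elicits interferon, and all were taken at day 18. The 3 control mice (Cebpafl/fl) had no Cre, and the 3 deleted mice (Cebpafl/fl;Mx1Cre) carried Mx1Cre, in which the interferon-inducible Mx1 promoter drives the recombinase and is not restricted to blood cells. Cre and the loss of Cebpa cannot be told apart. The labels give no age. Each mouse was read on its own array, so n = 3 per genotype.

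Set side by side, the genotypes show how the sorted cells differ between mice with Mx1Cre and deleted Cebpa and mice without Cre. Cebpa encodes the myeloid transcription factor C/EBPα. Blood stem cells and endothelium arise from a common precursor in the embryo, and several receptors and adhesion proteins stay in use in both. In adult marrow such proteins mark the most immature cells, and some of them, such as Tek, are known for holding stem cells in place and at rest. Their transcripts usually fade as progenitors mature.

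Cebpa itself was lower in the deleted mice, at 6.37, 5.82 and 6.09 on the log2 scale against 7.84, 7.85 and 7.73 in controls (log2 fold change -1.71 ± 0.14 SE, limma adjusted p = 0.000883). The arrays' medians were nearly level, from 6.16 to 6.23. The labels call the mice female, but the Y-linked Kdm5d and Eif2s3y stood at 8.04 to 8.49 and Xist at 4.46 to 5.13 on all 6 arrays. These readings disagree with the label in both genotypes alike. Of the sort proteins, Kit fell by 0.75 ± 0.13 (SE, limma adjusted p = 0.0270; 0.0359 to 0.101 with 1 array left out, below 0.05 only without deleted a). Slamf1, the gene of CD150, read 3.48, 3.75 and 3.93 in controls and 3.94, 3.94 and 4.86 in deleted mice, all below the lower quartile of all values, 4.91. The groups did not overlap, with the deleted mice higher, and the difference did not pass (0.53 ± 0.24 SE, limma adjusted p = 0.314). No detection calls were used here, so how far a low value stands above background is not known.

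Of the 9 measured genes, 5 fell and none rose: Procr, Emcn, Trpc6, Myct1 and Pdzk1ip1. Over all genes tested, 0.732% fell and 0.702% rose at the same threshold, a limma adjusted p under 0.05, which makes 1.43% in either direction. Tie1, Tek, Esam and Robo4 did not pass, and 8 of the 9, all but Robo4, were lower at an unadjusted p under 0.05, as were 6.77% of all genes. The share of all genes with such a p in either direction was not counted. Counts of unadjusted p-values in the lists below therefore have no matching share beside them. All 9 log2 fold changes were below 0, as were 43.5% of those of all genes. In all 9 genes the deleted mice read below the controls with no overlap, which was so for 8.68% of all genes. Their median log2 fold change was -0.64, where the median of all genes was 0.03. Because the genes were chosen with earlier results of these data known, these comparisons with all genes are a description and not a test. Averaged over the 9 genes, the controls read 7.05, 7.18 and 7.02 and the deleted mice 6.42, 6.30 and 6.48. Each array read the sorted cells of a mouse in bulk, so fewer cells of a type and less RNA per cell cannot be told apart.

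**Figure D1:**
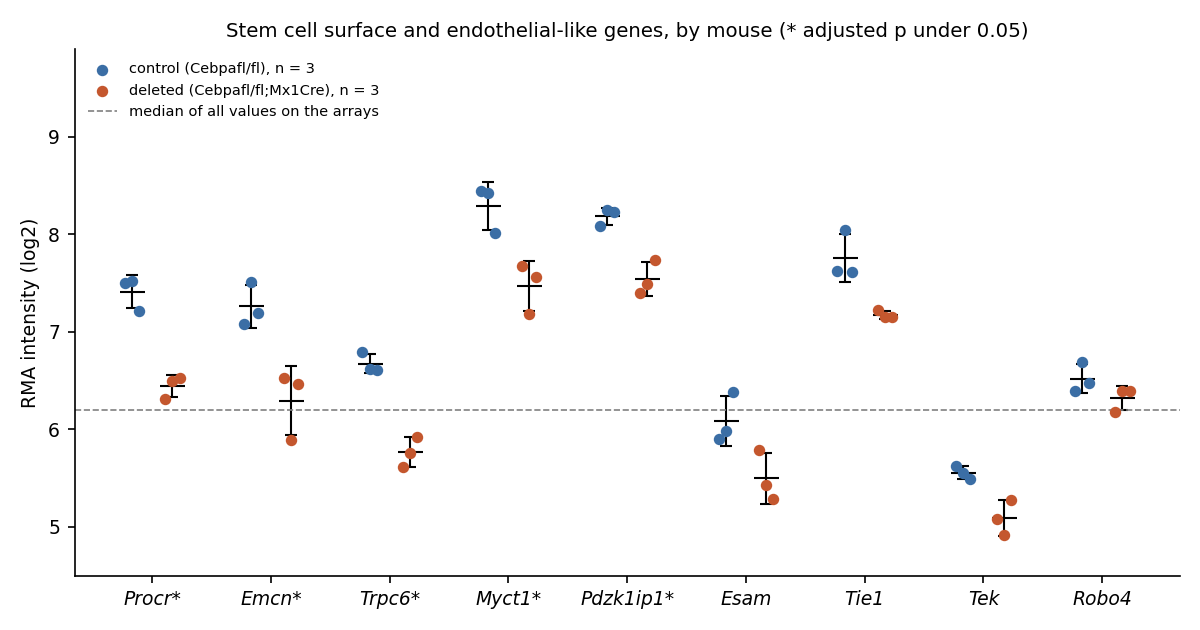
Deposited RMA intensity (log2, vertical axis) of the 9 measured genes in each mouse, with control mice in blue and deleted mice in red. Points are mice, black bars are the mean ± SD (n = 3), the dashed line is the median of all values (6.20), and asterisks mark a limma adjusted p under 0.05. Every deleted mouse lies below every control in each gene, by a wide margin in Procr and Trpc6 and by 0.0004 in Robo4.

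The stretches of DNA just before 4 of the 5 genes that fell are shown because each held a match to a motif searched for. RefSeq (build GRCm38.p6) gave a promoter window for 8 of the 10 genes, all but Ly6a and Esam, and the 250 bases before the listed start were searched on both strands. The motifs were TTGCNNAA for C/EBP factors, AGATAA for GATA factors, AGGAAG for ETS factors and CAGCTG for E-box proteins. Capitals mark matches, and each sequence runs 5′ to 3′ on the gene's strand, which is the plus strand here, up to the first base annotated to the gene.
Procr, chr2:155750967-155751124: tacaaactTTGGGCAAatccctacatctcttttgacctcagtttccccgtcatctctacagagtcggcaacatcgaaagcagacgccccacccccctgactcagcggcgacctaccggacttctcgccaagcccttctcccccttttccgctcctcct
Myct1, chr10:5593478-5593727: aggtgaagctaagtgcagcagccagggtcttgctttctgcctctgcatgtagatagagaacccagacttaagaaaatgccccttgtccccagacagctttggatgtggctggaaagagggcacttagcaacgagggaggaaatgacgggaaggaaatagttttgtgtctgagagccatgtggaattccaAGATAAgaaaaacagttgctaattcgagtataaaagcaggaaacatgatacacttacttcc
Pdzk1ip1, chr4:115088458-115088707: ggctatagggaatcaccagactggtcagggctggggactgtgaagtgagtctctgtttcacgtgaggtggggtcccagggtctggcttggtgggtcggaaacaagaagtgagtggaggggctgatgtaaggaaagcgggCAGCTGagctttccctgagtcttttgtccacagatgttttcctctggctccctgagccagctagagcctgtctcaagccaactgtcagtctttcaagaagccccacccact
Emcn, chr3:137340828-137341061: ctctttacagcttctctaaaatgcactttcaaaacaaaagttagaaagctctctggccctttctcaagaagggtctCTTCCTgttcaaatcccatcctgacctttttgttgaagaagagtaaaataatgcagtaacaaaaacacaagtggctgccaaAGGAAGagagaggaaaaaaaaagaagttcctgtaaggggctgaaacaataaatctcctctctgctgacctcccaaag

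The C/EBP letters were found in 1 of the 8 windows, that of Procr, starting at base -242 from the listed start, where 9.56% of 32851 promoter windows of this length hold them. The GATA letters were in 1 window, that of Myct1 (base -61), against 9.99% of all windows. The ETS letters were in 3 windows, those of Emcn (bases -174 and -93), Tie1 (base -219) and Robo4 (base -49), against 29.5%. The E-box letters were in 3, those of Procr (base -34, past the stretch shown), Pdzk1ip1 (base -111) and Robo4 (base -123), against 13.0%. The windows of Trpc6 and Tek held none of the 4 motifs. None of these motifs was in the window of every gene that fell. A match says only that these letters are present, and the share of all windows with any of the 4 motifs was not counted.

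Procr encodes the endothelial protein C receptor, which binds the anticoagulant protein C and is used to isolate stem cells. Its values were 7.50, 7.52 and 7.22 in control mice and 6.31, 6.49 and 6.53 in deleted mice. The lowest control stood 0.69 above the highest deleted mouse. Procr fell 1.95-fold (95% interval 1.62 to 2.36), a log2 fold change of -0.97 ± 0.12 (SE, limma adjusted p = 0.00854). It passed with each of the 6 arrays left out in turn (0.0115 to 0.0469).

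The other measured genes of the protein C pathway did not pass. Of 10 measured genes, Procr fell and none rose, and the median of the other 9 was 0.05. F2r, a thrombin receptor, stood at 7.89 ± 0.07 (SD, n = 3) in controls and 8.42 ± 0.15 in deleted mice (log2 fold change 0.52 ± 0.11 SE, limma adjusted p = 0.0571, and below 0.05 under quantile or median scaling and with dim genes filtered out). F2rl2, another receptor of its family, had the opposite sign (-0.54 ± 0.15 SE, adjusted p = 0.113).

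Emcn encodes endomucin, a sialomucin that coats venous and capillary endothelium and hinders cell adhesion. It read 7.08, 7.51 and 7.20 in controls and 6.52, 5.89 and 6.47 in deleted mice. Deleted b was the lowest, and the deleted mice spread more (SD 0.35) than for any other of the 9 genes. Emcn fell by 0.97 ± 0.18 (SE) on the log2 scale, 1.95-fold (95% interval 1.47 to 2.59, limma adjusted p = 0.0380). The call was lost with any single array left out (0.0617 to 0.125, the highest without control b).

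Of 9 measured sialomucins, Emcn fell and none rose, and the other 8 had a median of -0.01. Podxl, a sialomucin of endothelium and stem cells, had a log2 fold change of -0.43 ± 0.13 (SE, limma adjusted p = 0.151). Cd34, a surface marker of progenitors, was bright in all mice (11.6 ± 0.09 SD in controls, 11.3 ± 0.08 in deleted mice, n = 3 each) and did not pass (-0.27 ± 0.10 SE, adjusted p = 0.232).

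Trpc6 encodes a cation channel that lets calcium in and is opened by diacylglycerol. Control values were 6.79, 6.63 and 6.61, and deleted values 5.61, 5.76 and 5.92. All deleted values lay below the median of all values on the arrays, 6.20, and all control values above it. Trpc6 fell by 0.91 ± 0.12 (SE) on the log2 scale, 1.88-fold (95% interval 1.57 to 2.25, limma adjusted p = 0.00912), and passed with each array left out (0.0177 to 0.0428). Of 5 measured TRPC channel genes it alone passed; Trpc4 (0.17 ± 0.13 SE, adjusted p = 0.597) and Trpc7 (-0.15 ± 0.17 SE, adjusted p = 0.747) did not.

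Myct1 encodes a membrane protein named as a Myc target and found in endothelium and early blood cells. It was among the brighter genes, at 8.44, 8.43 and 8.01 in controls and 7.67, 7.18 and 7.57 in deleted mice. Control c was low and deleted a high within their groups, yet the groups stayed 0.34 apart. The fall was 1.77-fold (95% interval 1.37 to 2.28; log2 -0.82 ± 0.16 SE, limma adjusted p = 0.0440). The call was kept without control c (0.0345) and lost without any other array (0.0675 to 0.155) and when arrays were centred on their medians (0.0525).

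Pdzk1ip1 encodes MAP17, a small membrane protein that binds PDZ-domain scaffolds and marks stem cells in mouse marrow. Its controls lay close together, at 8.09, 8.25 and 8.23, and the deleted mice read 7.40, 7.49 and 7.74. The fall was 1.56-fold (95% interval 1.30 to 1.88; log2 -0.64 ± 0.12 SE, limma adjusted p = 0.0366). It passed without deleted c (0.0336), the highest of the deleted mice, and did not pass without any other array (0.0706 to 0.125).

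Tek encodes Tie2, the receptor tyrosine kinase of the angiopoietins, and Tie1 its partner, which has no angiopoietin ligand of its own and tunes Tie2. Tie1 read 7.62, 8.04 and 7.61 in controls against 7.23, 7.16 and 7.16 in deleted mice (log2 fold change -0.58 ± 0.13 SE, limma adjusted p = 0.0687). The deleted mice lay close together (SD 0.04), while control b stood above the other controls. Tie1 passed only when genes below the median of mean intensity were left out (adjusted p = 0.0452). Tek was dim, at 5.62, 5.55 and 5.49 in controls and 5.09, 4.91 and 5.28 in deleted mice. All 6 values lay below the median of all values, 6.20, and deleted b at the lower quartile. Its log2 fold change was -0.46 ± 0.12 (SE, limma adjusted p = 0.0965).

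The receptors' changes were compared within arrays. Tie1 minus Tek was 2.21 ± 0.25 (SD, n = 3) in controls and 2.09 ± 0.19 in deleted mice, a change of -0.12 (exact two-sided permutation test, p = 0.6; 0.6 adjusted over 3 such pairs). Of 10 measured genes of the angiopoietin pathway none passed, with 2 at an unadjusted p under 0.05, Tie1 and Tek, and a median of 0.01 over the 8 others. Angpt1, the ligand that activates Tie2, read 10.5 in controls and 10.2 in deleted mice (adjusted p = 0.376).

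Esam encodes an immunoglobulin-type adhesion molecule of endothelial junctions that stem cells also carry. Controls read 5.90, 5.98 and 6.38 and deleted mice 5.79, 5.43 and 5.28. Deleted a came within 0.11 of the lowest control. The log2 fold change was -0.59 ± 0.17 (SE, limma adjusted p = 0.123), as large as that of Tie1 but with more spread. Of 10 measured junction genes none passed, with 3 at an unadjusted p under 0.05, and the 9 other than Esam had a median of -0.05. Vsig2, a related junction protein, read 7.66 ± 0.30 in controls and 7.10 ± 0.30 in deleted mice (SD, n = 3 each; adjusted p = 0.183).

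Robo4 encodes an endothelial receptor of the Roundabout family, which also helps stem cells lodge in marrow. It changed least, at 6.40, 6.69 and 6.47 in controls and 6.18, 6.40 and 6.40 in deleted mice. The highest deleted mouse and the lowest control differed by 0.0004. The log2 fold change was -0.20 ± 0.12 (SE, limma adjusted p = 0.470), with a 95% interval from -0.47 to 0.07. None of 11 measured genes of the Slit and Roundabout pathway passed, with 1 at an unadjusted p under 0.05, Robo2 (-0.34 ± 0.11 SE, adjusted p = 0.190), and Srgap2, which relays Roundabout signals, was at -0.20 (adjusted p = 0.380).

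Procr and Robo4 were set against each other within arrays because they are the ends of this range, so their difference is read as a description only. Its p-value was used only in the adjustment over the 3 pairs. Procr minus Robo4 was 1.10, 0.83 and 0.74 in controls and 0.14, 0.10 and 0.13 in deleted mice. The groups did not overlap, with a change of -0.77. Esam minus Robo4 changed by -0.39 (exact two-sided permutation test, p = 0.3, where 3 against 3 cannot go below 0.1; 0.45 adjusted over the 3 pairs, that of Procr included). The plot of fold changes shows the 9 intervals beside all genes.

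**Figure D2:**
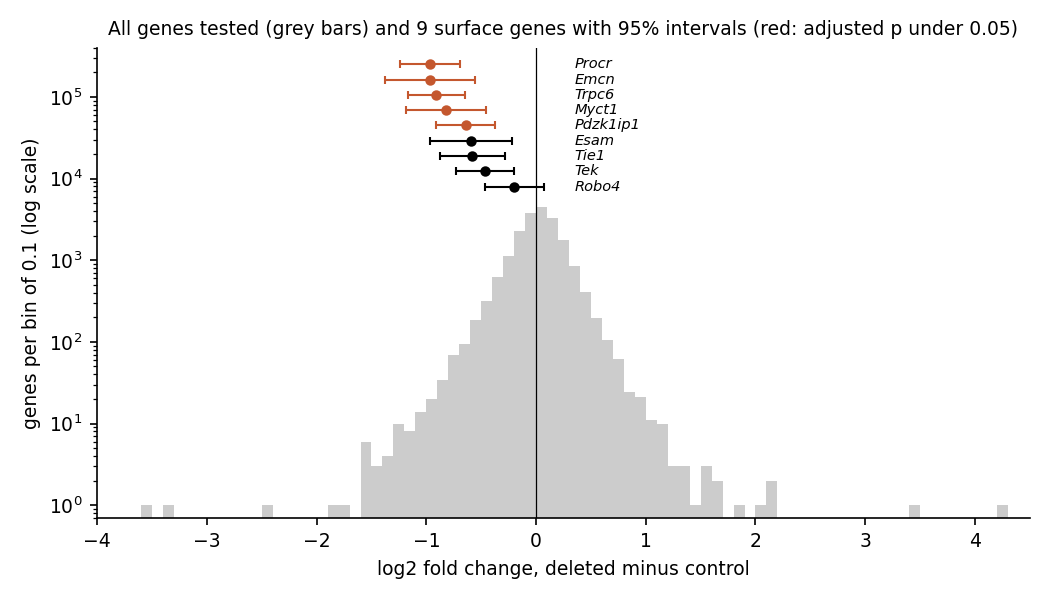
Log2 fold change, deleted minus control, of all 19938 genes (grey bars, number of genes per bin of 0.1 on a log axis) and of the 9 measured genes (points with 95% intervals, stacked by size only for legibility; red passed, black did not). The points run from -0.97 to -0.20, and only the interval of Robo4 reaches past 0.

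Ly6a, whose product Sca-1 was itself used in the sort, was not analysed here, and neither were its relatives Ly6c1 and Ly6c2. None of 17 measured genes of the Ly6 family passed, and none had an unadjusted p under 0.05. Their median was -0.01, with Ly6d, a lymphoid member, at 0.30 ± 0.14 (SE, limma adjusted p = 0.331) and Cd59a, a complement inhibitor, at 0.31 ± 0.15 (SE, adjusted p = 0.367).

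Other surface genes of stem cells went in both directions. Of 37 measured genes of that list, 4 fell and 1 rose, with a median of -0.11. Before adjustment 17 had a p under 0.05 in either direction, for which the share of all genes was not counted. In 11 the deleted mice lay wholly below the controls (8.68% of all genes) and in 6 wholly above (12.5% of all genes). Cd48, which marks progenitors that have left the stem cell state, rose by 1.00 ± 0.11 (SE, limma adjusted p = 0.00520), from 9.79 ± 0.08 to 10.8 ± 0.15 (SD, n = 3 each), and passed with each array left out. The adhesion molecule Alcam fell by 0.94 ± 0.13 (SE, adjusted p = 0.0119; 0.0564 without control b), and the tetraspanin Cd81 by 0.61 ± 0.11 (SE, adjusted p = 0.0337; 0.0458 to 0.124 with 1 array left out, below 0.05 only without deleted c). Kit, given above, also fell. The other falling gene of the list, Ldhb, encodes a cytosolic enzyme and not a surface protein; it fell by 1.26 ± 0.17 (SE, adjusted p = 0.0119; 0.0553 without control b). Adgrg1, an adhesion receptor of stem cells, stood at the threshold (-0.79 ± 0.16 SE, adjusted p = 0.0522), and passed without deleted a (0.0469) and under 8 settings with all arrays, among them quantile normalization (0.0361) and leaving out genes below the median of mean intensity (0.0360).

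Among 28 other genes known in both stem cells and endothelium, 2 fell and none rose, with a median of -0.15. Before adjustment 9 had a p under 0.05 in either direction, for which the share of all genes was not counted. The deleted mice lay wholly below the controls in 8 (8.68% of all genes) and wholly above in 3 (12.5% of all genes). Mecom, a stem cell transcription factor, fell by 1.47 ± 0.14 (SE, limma adjusted p = 0.00275), more than any of the 9 genes. Plxnc1, a semaphorin receptor, fell by 0.69 ± 0.13 (SE, adjusted p = 0.0408; 0.0273 to 0.140 with 1 array left out, below 0.05 only without deleted c). Its call was also lost after quantile normalization (0.0552). Eng, a co-receptor for TGF-beta, did not pass (-0.47 ± 0.11 SE, adjusted p = 0.0747; 0.0489 with genes below the median of mean intensity left out), and Pecam1, an adhesion protein of endothelium and blood cells, had the opposite sign (0.51 ± 0.13 SE, adjusted p = 0.103). Of the 28 genes, 9 stood on another list as well.

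**Figure D3:**
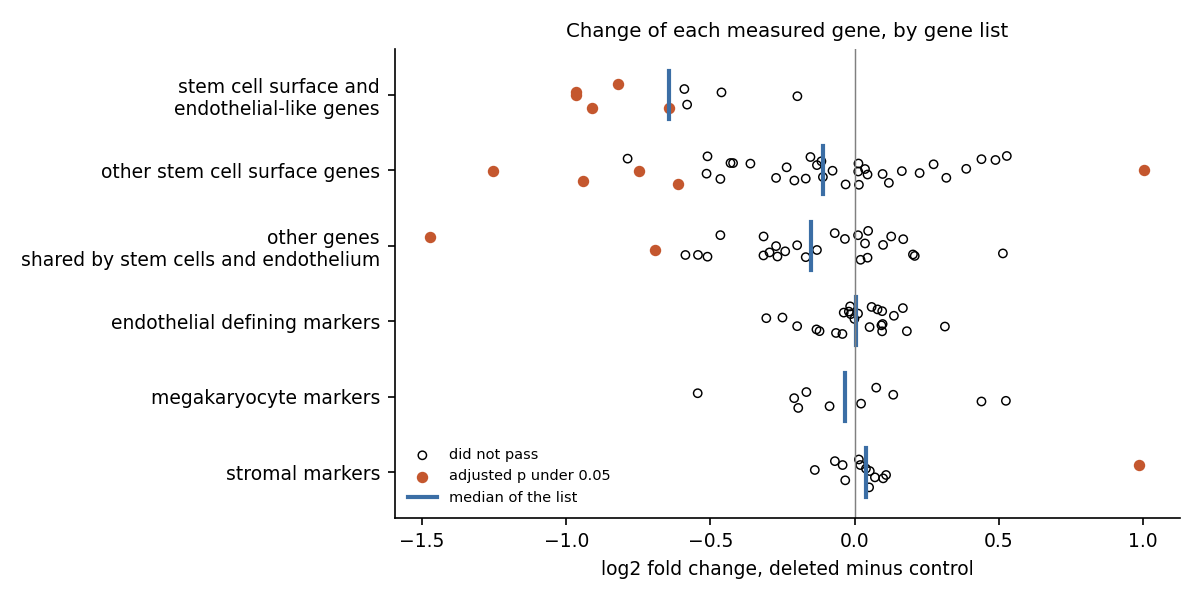
Log2 fold change, deleted minus control, of every measured gene in 6 lists, with filled points past a limma adjusted p of 0.05, open points not past it and blue bars at each list's median. The 9 surface genes all lie left of 0 (median -0.64), the other stem cell lists spread to both sides (medians -0.11 and -0.15), and the endothelial markers gather near 0 (median 0.01).

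None of 24 markers that define endothelial cells passed, with 2 at an unadjusted p under 0.05, and the sum of their intensities was 1416 to 1454 in controls and 1424 to 1505 in deleted mice. Of the 24, 19 had a mean below the median of all values, 2 of them below the lower quartile, and 5 stood on another list as well. The vessel cadherin gene Cdh5 read 5.61 ± 0.06 and 5.71 ± 0.03 (SD, n = 3 each, controls first), the VEGF receptor genes Kdr 4.996 ± 0.10 and 5.06 ± 0.07 and Flt1 5.61 ± 0.12 and 5.93 ± 0.14, Plvap of fenestrated endothelium 6.21 ± 0.07 and 6.40 ± 0.18, and Stab2 of sinusoids 5.92 ± 0.09 and 6.02 ± 0.07. The smallest p-values were those of Flt1 (log2 fold change 0.31 ± 0.11 SE, limma adjusted p = 0.220) and Aplnr, the apelin receptor gene (-0.31 ± 0.12 SE, adjusted p = 0.270).

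Markers of other cells that could be in the sort were read in the same way, although a lineage-negative gate is meant to remove mature cells such as neutrophils. Of 13 neutrophil genes 4 fell and none rose: S100a8 (-3.51 ± 0.13 SE), S100a9 (-3.37 ± 0.17), Camp (-0.97 ± 0.16) and Csf3r (-1.09 ± 0.20), with limma adjusted p-values of 2.2e-06, 3.0e-05, 0.0230 and 0.0376. Without single arrays those of Camp and Csf3r reached 0.0915 and 0.130; Camp passed only without control b or deleted a, and Csf3r only without deleted a. The summed intensity of the 13 was 1628 to 1814 in controls and 604 to 729 in deleted mice, and its part in the falls described here was not tested. None of 10 megakaryocyte genes passed (3 at an unadjusted p under 0.05; sums 1193 to 1255 against 1210 to 1314), with Itga2b, the platelet integrin, at 0.44 ± 0.12 (SE, adjusted p = 0.104). Of 13 stromal genes 1 rose, Pdgfrb, a growth factor receptor of mural cells (0.99 ± 0.13 SE, adjusted p = 0.0104; 0.0541 without control b), while Nes and Col3a1 were at -0.14 and 0.10; the sums were 793 to 854 against 925 to 950, and their part was not tested.

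None of the measured genes that lie next to the 10 on the chromosomes passed. RefSeq order gave 38 protein-coding neighbours, 2 on either side of each gene on 6 chromosomes, of which 33 were measured. Limma called 0 of them, where 1.43% of all genes were called, and 4 had an unadjusted p under 0.05. Their log2 fold changes ran from -0.55 to 0.41 with a median of 0.04, and 14 of 33 were below 0. Tal1, a stem cell transcription factor beside Pdzk1ip1, read 7.48 ± 0.06 in controls and 7.68 ± 0.11 in deleted mice (SD, n = 3 each; adjusted p = 0.392). Edem2 and Mmp24, on either side of Procr, were at 0.23 and -0.01, Ppp3ca beside Emcn was at -0.21, Cyp4x1 beside Pdzk1ip1 at 0.04 and Ly6i beside Ly6a at 0.09. Esam and Robo4 lie close together on chromosome 9 and share the neighbours Robo3, at 0.04, and Msantd2, at -0.15. Hepacam lies on the other side of Robo4, at 0.01, and Vsig2, given above, next to Esam. Cep126 and Pgr beside Trpc6 were at -0.15 and 0.07, Syne1 and Vip beside Myct1 at -0.11 and 0.09, and Lrrc19 and Eqtn beside Tek at -0.14 and 0.13.

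The genes whose values over the 6 arrays most resembled those of each falling gene were taken as the 2 with the smallest root mean square distance after centring each gene on its mean, among 9453 genes at or above the median intensity. The surface genes themselves, short RNAs and symbols without a descriptive name had been left out of the search. The genes given are alike in these 6 arrays only, where the difference between genotypes dominates the distance. For Procr they were Cd68, a lysosomal protein of macrophages (distance 0.07 log2), and Tcf7l2, a factor of Wnt signalling (0.10). Cd68 was also close to Trpc6 (0.08), as was Rhobtb3 (0.08). Myct1 was closest to Spred2, an inhibitor of ERK signalling (0.08), and Antkmt (0.09), and Pdzk1ip1 to Emb, an adhesion protein (0.04), and Anxa1, a phospholipid-binding protein (0.08). Emcn was closest to the phosphatase gene Ocrl (0.08) and to Rasgrp2, an activator of Rap1 (0.12). Within this search only Procr and Trpc6 had a nearest gene in common.

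**Figure D4:**
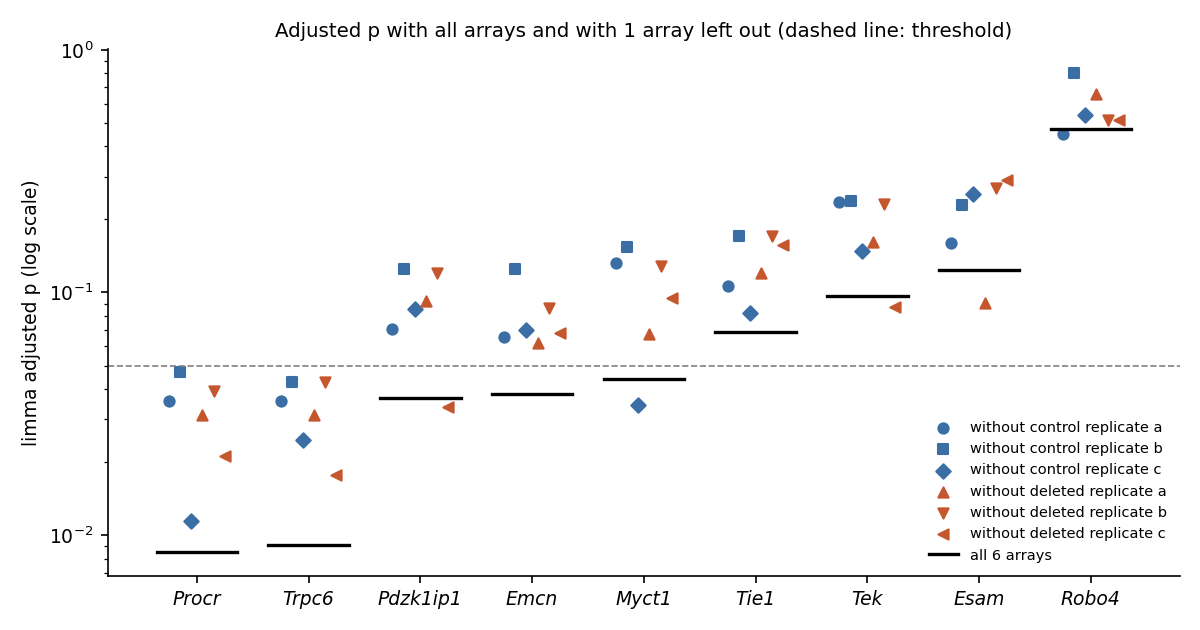
Limma adjusted p (log axis) of the 9 genes with all 6 arrays (black bars) and with each array left out (blue symbols for a control, red for a deleted mouse), with the threshold of 0.05 dashed. Procr and Trpc6 stay below the line in all 6 cases, Pdzk1ip1 and Myct1 in 1 each, and Emcn and the other 4 genes in none.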

How the data were processed

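Values were the authors' deposited log2 intensities of 35556 rows on 6 Affymetrix Mouse Gene 1.0 ST arrays. The submitters' processing notes list RMA and Affymetrix Expression Console (1.1.2), with no settings or annotation build. Values were used as deposited. The platform's annotation named 1 gene for 21789 rows, several for 1621 and none for 12146. Of 19939 gene IDs 19856 matched RefSeq (GRCm38.p6), used for names and gene order. For 999 genes with several rows the brightest was kept.

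Genotypes were compared over all 19938 genes with limma 3.58.1 in R 4.3.3 (lmFit, eBayes, no block or filter; 5.52 prior degrees of freedom), two-sided, with Benjamini-Hochberg adjustment and a threshold of 0.05. Fold changes are deleted minus control; intervals are from the same fit. The fit was tested on simulated data. Exact permutation tests and promoter searches used Python 3.11.15 and SciPy 1.17.1. The number of arrays limits precision.

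The genes and lists were chosen with earlier results of these data known; lists came from general knowledge. Named were the 10 genes, Cebpa, sort markers, 5 endothelial markers, each list's passing genes and the 2 others with the smallest p, passing neighbours or the nearest on either side, and the 2 most alike genes. Angpt1, as a ligand of Tie2, and the sex-linked genes were named besides. Neighbours whose symbols only number a clone or predicted gene were left unnamed. Promoter motifs and paired differences were chosen after values were seen. Alternatives were other priors, filters, normalizations, rows, weights, a block, an ordinary test and leaving out arrays.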

Additional observations from a re-analysis of the deposited data

How the results depend on the processing

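All 9 genes kept their direction under every alternative that gave a value, 12 settings and 6 with an array left out. Leaving out an array could not change a sign, since the groups did not overlap in any of the 9. With all arrays, only the other normalizations and the array weights could alter a fold change of these genes. The filters on dim genes gave no value for Tek at the 25th percentile and for Tek, Trpc6 and Esam at the median. Of 158 values of single genes, 128 kept their side of the threshold, 29 lost and 1 gained a call. The 5 falling genes became 0 with an ordinary pooled-variance test and 0 when all deposited rows entered the fit, and 2 to 3 with an array left out. All calls, 286, became 438 above the median of mean intensity, 13 with every deposited row, 0 with the ordinary test, and 53 to 250 with an array left out. The 12 other listed genes that passed became 2 with every row, 0 with the ordinary test and 5 to 11 with an array left out. Cebpa, at -1.71 in both, lost its call with every row (limma adjusted p = 0.0513) and with the ordinary test (0.187). The cause was not tested.

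No pairing of mice by title letter is stated. Deviations of same-lettered mice correlated at -0.01, -0.04 and 0.06 across genes, and those of unlike letters at -0.10 to 0.11. With 3 mice per group such correlations cannot settle whether mice were paired. With the letter as a replicate block 3 of the 9 genes passed, Emcn (0.0633) and Myct1 (0.0540) losing their calls, and 274 of all genes. Of the other listed genes Cd81 (0.0604) and Plxnc1 (0.0508) lost and Adgrg1 (0.0289) gained a call. Signal over background was not measured; Tek and Esam were the 2 of the 9 with a mean below the median of all values.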

Other observations

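Genes induced by type I interferon, which pIpC elicits and which raises Sca-1 on progenitors, were read because Sca-1 defined the sort. None of 17 measured passed, with 6 at an unadjusted p under 0.05 and a median log2 fold change of 0.15. Ifit1, an RNA-binding antiviral protein, read 6.99 ± 0.06 in controls and 7.54 ± 0.17 in deleted mice (SD, n = 3 each; limma adjusted p = 0.0573), and Ifitm1, which blocks virus entry, 11.7 ± 0.26 and 12.4 ± 0.17 (adjusted p = 0.0661). Each of these 2 genes passed after quantile or median scaling and with genes below the median of mean intensity left out. Of 9 mature B and T cell genes none passed and none had an unadjusted p under 0.05, with Cd3e at -0.22 and Cd3g at 0.30. Of 7 erythroid genes none passed, with 1 at an unadjusted p under 0.05, the transferrin receptor gene Tfrc at 0.36 ± 0.11 (SE, adjusted p = 0.161), and the haem synthesis gene Alas2 at -0.28. The neutrophil genes Cxcr2, a chemokine receptor, and Ngp, a granule protein, did not pass, at 0.46 and -0.61 (adjusted p = 0.122 and 0.152); without single arrays that of Ngp ran from 0.0345 to 0.362.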
